A study of Caenorhabditis elegans with 4 samples.

Results

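Broad domains of RNA polymerase II are continuous stretches of more than 10 kb that the peak caller drew as a single enriched region. They were taken from the peak list of the second of 2 chromatin immunoprecipitation (ChIP-seq) libraries as every peak on chromosomes I to V and X wider than 10000 bp, last base minus first base plus 1. This gave 285 of the 5585 peaks of that list (5.10%), and they were chosen by their width in replicate 2 alone. The libraries came from Caenorhabditis elegans of the N2 strain with a wild-type genotype, as early embryos released by bleaching from adults grown in liquid culture, at 20 °C, from a mixed population of males and hermaphrodites. Both precipitated samples (replicates 1 and 2) carried the same genotype, stage and antibody, 8WG16, and 2 further samples of input DNA were not analysed here. Whole embryos were used, so a domain may be occupied in some cells and not in others. The data used were the positions of peaks in 3 lists: 4343 peaks of replicate 1, 5585 of replicate 2 and 18427 nuclear peaks of a list for the whole series. The lists hold no read counts, so the depth is unknown. All positions are in build WormBase WS220.

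RNA polymerase II transcribes protein-coding genes and many small RNA genes, and 8WG16 binds mainly the unphosphorylated C-terminal repeats of its largest subunit, the form that is recruited to promoters. Genes lie close together in the compact C. elegans genome, and many are arranged in operons, runs of neighbouring genes transcribed from a shared promoter and then separated by trans-splicing. A polymerase region that spans many kilobases can therefore cover a long gene, an operon or several neighbouring genes. Genes and sequences within the domains are not named here, since the gene table used is of another build (WBcel235) and no genome of build WS220 was used.

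The broad domains made up the upper tail of a continuous range of widths. Their median width was 12879 bp, with an interquartile range of 11332 to 15693 bp, and the widest, 33746 bp, was 3.37 times as wide as the narrowest, 10013 bp. Only 82 exceeded 15 kb, 25 exceeded 20 kb and 6 exceeded 25 kb. Together they covered 4.00 Mb, which was 21.0% of all bases under replicate 2 peaks and 3.99% of the genome. Peaks lay close to the threshold on both sides. Within 500 bp above 10 kb there were 25 domains, and within 500 bp below it there were 39 peaks. The 5 members nearest above it measured 10013, 10040, 10072, 10093 and 10099 bp, on X, III, V, V and I. The 5 peaks nearest below it measured 9979, 9958, 9939, 9921 and 9921 bp, 2 on X and 3 on III. The share of their bases under replicate 1 peaks ran from 15.4 to 98.5% for the former and from 40.1 to 100% for the latter. Peaks on either side of the threshold thus varied widely in their cover in the other library. With 5 peaks on each side, each limit of these ranges rests on a single peak.

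**Figure D1:**
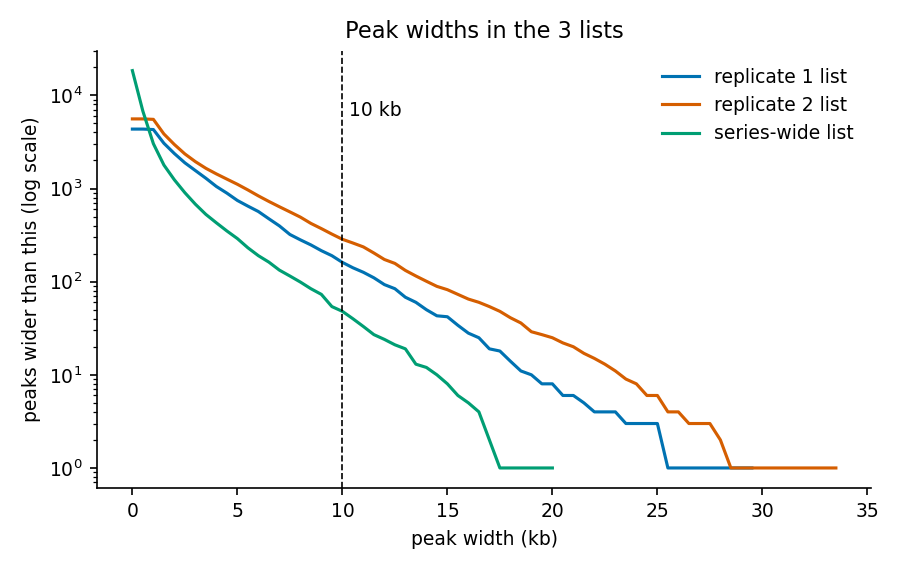
Number of peaks (y, log scale) wider than a given width in kb (x) in the replicate 1, replicate 2 and series-wide lists. No step marks the 10 kb threshold (dashed line), above which lie 161 peaks of replicate 1, 285 of replicate 2 and 48 of the series-wide list.

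The 10 widest domains differed greatly in how much of them the other library also listed. Chromosome IV held 3 of them, chromosomes II, III and V held 2 each, I held 1 and X held none. In 6 of the 10 more than 85% of the bases were under replicate 1 peaks, and in the other 4 less than 50% were. Among all 285 domains, 15.8% had less than 50% of their bases under replicate 1 peaks. The widest ran on III from 12595141 to 12628886, near the right end of the chromosome. There replicate 1 listed a 29687 bp peak that began 28 bp inside the domain, followed by a 1720 bp peak, and 93.1% of the bases were covered. The series-wide list placed 8 peaks in it, the largest of 16054 bp, over 96.4% of the bases.

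The second widest domain, on II from 9038304 to 9066618 (28315 bp), was mostly missing from replicate 1. A single replicate 1 peak of 7450 bp, which began 20060 bp into the domain, covered 26.3% of it. The series-wide list broke the same domain into 24 peaks, more than in any other member, of 148 to 5510 bp. On III from 5700923 to 5728427 (27505 bp), 95.8% of the bases were in replicate 1 and 15 series-wide peaks lay inside.

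On chromosome IV, 2 further domains were listed in replicate 1 over a single stretch. That from 5968929 to 5994936 (26008 bp) held a 16548 bp series-wide peak, but replicate 1 listed only 2585 bp there, 9.94% of the domain, and the last 6141 bp held no series-wide peak. The domain from 13012554 to 13037677 (25124 bp) had its right part in both other lists, as a 9270 bp replicate 1 peak and a 9093 bp series-wide peak. Its left part held 11 narrow series-wide peaks of 146 to 343 bp and no replicate 1 peak.

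The sixth widest, on II from 11613487 to 11638602 (25116 bp), was the most uniform of the 10. It lay almost wholly within a single replicate 1 peak of 25199 bp, which covered 99.6% of it. Only 2 series-wide peaks, of 17163 and 7215 bp, filled 97.1% of it, and the former was the widest series-wide peak in any member. The others of the 10 were on I from 11074616 to 11099021 (94.6% of bases in replicate 1), on V from 13158141 to 13182425 (92.3%) and from 4488877 to 4512660 (85.7%), and on IV from 1899378 to 1922649 (44.6%). The widest domain of X ran from 2904931 to 2923519 (18589 bp). It was covered to 50.8% by 3 replicate 1 peaks and held 21 series-wide peaks.

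Chromosome III was the richest in broad domains, and V and X the poorest. There were 64 domains on III, 52 on I, 46 on IV, 43 on II, 43 on V and 37 on X. Relative to length, III had 4.64 domains per Mb and I had 3.45, while II had 2.81, IV 2.63, X 2.09 and V 2.06. Domains took 6.62% of the bases of III and 2.73% of those of X. The order of V and X, whose values per Mb lay close together, turned when bases were counted, with 2.81% on V. Median widths were alike, from 12001 bp on X to 13053.5 bp on IV.

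Broad domains were a small share of the peaks of every chromosome. The share of replicate 2 peaks over 10 kb lay between 4.58% on II (exact 95% binomial interval 3.34 to 6.13%) and 6.30% on III (4.88 to 7.97%), beside 5.10% over all chromosomes. These intervals overlap, and they cover counting error only. On I, second in domains per Mb, the share was 4.68%, and on V, last per Mb, it was 5.57%. Replicate 1, which the choice of members did not use, listed 161 peaks over 10 kb (3.71% of its peaks) in another order of chromosomes. Chromosome I had 2.72 of them per Mb and III had 2.39, while II had 1.83, IV 1.49, X 0.96 and V 0.76. Chromosomes I and III led and V and X were last in both lists of peaks over 10 kb. Replicate 2 peaks of all widths also had I and III first and X and V last, with 73.8, 73.7, 44.1 and 36.9 per Mb. With 2 libraries of a single group, no test across samples was possible for these or the later comparisons.

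**Figure D2:**
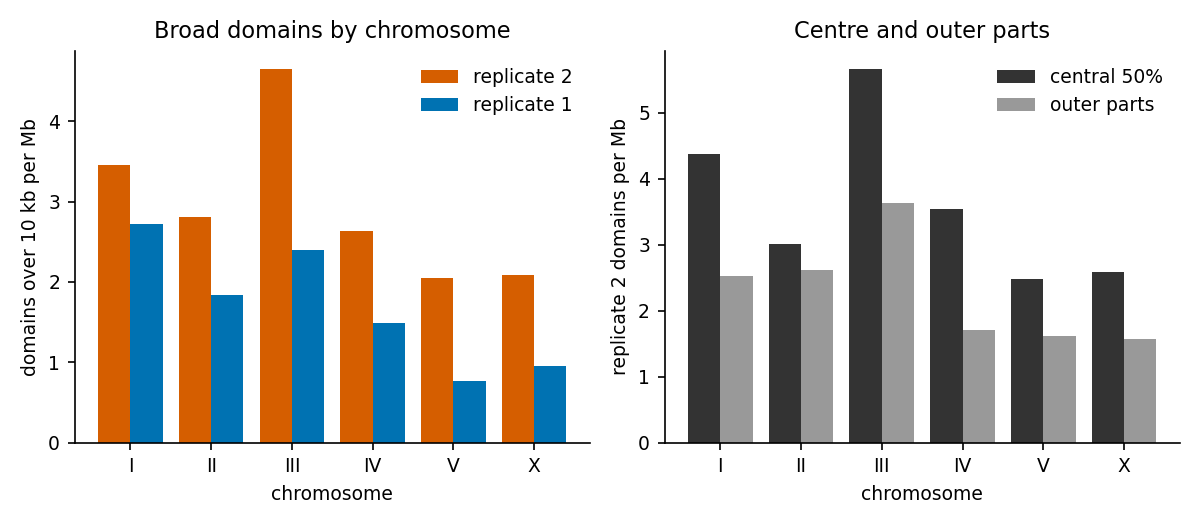
Left, peaks over 10 kb per Mb of each chromosome in replicate 2 (orange) and replicate 1 (blue), highest on III (4.64) in replicate 2 and on I (2.72) in replicate 1. Right, replicate 2 domains per Mb in the central 50% of each chromosome (dark) and in its outer parts (grey), where the dark bar is the higher on each of the 6 chromosomes.

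Along the chromosomes, 175 of the 285 midpoints (61.4%, exact 95% interval 55.5 to 67.1%) lay in the central 50%, against 54.3% of all replicate 2 peaks. The remaining domains were split evenly, 55 in the left and 55 in the right outer parts. The centre was denser on all 6 chromosomes in replicate 2, with 5.66 domains per Mb in the centre of III and 3.63 in its outer parts as the highest values. On II the contrast was smallest, 3.01 against 2.62. Replicate 2 peaks of all widths also lay more often in the centre on I to V, with shares of 52.2 to 62.4%, and on X 49.0% of them did. On V a smaller share of the domains than of all peaks was central (60.5 against 62.4%), and on II the shares were close (53.5 against 52.2%). On IV they were 67.4 against 52.2%, and on X 62.2 against 49.0%. Peaks of 5 to 10 kb had nearly the same central share as the domains, 60.4%, and peaks up to 2 kb had 50.8%. In replicate 1 the central share of peaks over 10 kb was lower, 88 of 161 (54.7%, 46.6 to 62.5%), and on V only 5 of 16 were central, where replicate 2 had 26 of 43.

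Most broad domains lay far from the next broad domain. The median distance from one to the next on the same chromosome was 222741 bp (interquartile range 98043.5 to 449636 bp, n = 279 intervals). In 36 intervals the distance was under 50 kb, in 15 it was under 20 kb and in 2 under 5 kb. In 9 intervals there was no other replicate 2 peak. The closest pair lay on V, where domains of 13894 and 12308 bp were parted by 712 bp, from 14124559 to 14125272. Replicate 1 covered only 12.1% and 14.2% of this pair.

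When domains less than 50 kb apart were linked, 66 of the 285 (23.2%) fell into 30 clusters and 219 were single. No random placement was drawn and no other width class was linked. Whether domains lie closer together than their number alone would give was not tested. Of the clusters, 25 were pairs, 4 held 3 domains and 1 held 4. Chromosome III had 10 clusters with 23 domains, V had 7 with 15, I had 6 with 13, and X had a single cluster of 3. The cluster of 4 lay on III from 10656372 to 10820349. Its domains measured 22191, 11236, 19701 and 12785 bp, and replicate 1 covered 98.3, 64.7, 58.4 and 97.1% of them. The outer members of this cluster were thus almost wholly listed in replicate 1 and the inner members in part.

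The tightest cluster of 3 was on I from 7493413 to 7546556, where the domains filled 65.7% of 53144 bp. Its members measured 11332, 11704 and 11892 bp and were covered to 98.1, 88.8 and 94.0% in replicate 1. That on V from 8781388 to 8900019 spanned 118632 bp, and its members were covered to 21.0, 79.9 and 100%. The other clusters of 3 ran on III from 3789065 to 3874010 and on X from 10566557 to 10620948, with 94.0 and 85.1% of their domain bases in replicate 1.

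Among 97 complete bins of 1 Mb, 8 held no broad domain and 9 held 6 or more (mean 2.81 ± 1.79, SD over bins). The fullest was the bin from 7 to 8 Mb on I, with 8 domains, followed by 12 to 13 Mb and 9 to 10 Mb on III with 7 each. Domains took 9.65% of the first and 11.6% of the second. Of the 9 bins with 6 or more, 6 were on III. The bin from 5 to 6 Mb on IV reached 6 domains with only 40 replicate 2 peaks of any width, where the bin from 0 to 1 Mb on II had 6 among 89. Across bins, the number of domains and the number of all replicate 2 peaks had a Spearman's rho of 0.50 (n = 97 bins, which share the library). The longest stretch between neighbouring domains was on V, 2511119 bp from 15510107 to 18021227, with 53 narrower replicate 2 peaks in it.

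The surroundings of the domains were no fuller of polymerase peaks than those of narrower peaks. Within 25 kb on either side, replicate 2 peaks covered a median of 20.0% of bases around the domains (interquartile range 10.2 to 31.9%). The median was 22.4% around peaks of 5 to 10 kb and 24.5% around peaks of 2 to 5 kb. The nearest other replicate 2 peak lay at a median of 1865 bp from a domain and 1231 bp from a peak of 5 to 10 kb. It was less than 1 kb away for 95 of the 285 domains (33.3%), against 43.9% of all replicate 2 peaks.

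Most of the bases of the broad domains were also under replicate 1 peaks. Replicate 1 covered 76.3% of their bases as a whole, and the median domain was covered to 87.8% (interquartile range 70.6 to 96.3%). At least 50% of the bases were covered in 240 of 285 domains (84.2%, exact 95% interval 79.4 to 88.2%), against 55.3% of all replicate 2 peaks. At least 90% were covered in 129 (45.3%), against 28.2% of all. Replicate 1 listed no base of 18 domains (6.32%, 3.79 to 9.80%), against 38.6% of all replicate 2 peaks, and every base of 8 (2.81%), against 7.56%. Between these, 27 domains were covered to more than 0 but less than 50%. At least 1 base was covered in 93.7% of domains, 92.7% of peaks of 5 to 10 kb and 61.4% of all replicate 2 peaks. At least 50% was covered in 84.2, 82.4 and 55.3%, so partial cover was not particular to the domains.

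Peaks of 5 to 10 kb were nearly as well covered as the domains. Their bases were covered to 74.5%, their median was 86.0%, and 82.4% of them (79.7 to 84.96%) were covered to at least 50%. The interval overlaps that of the domains. Cover was lower in narrower classes, with 61.0% of bases for peaks of 2 to 5 kb and 34.7% for peaks up to 2 kb. Among the domains, width and cover had a Spearman's rho of 0.02 (n = 285 domains of a single library). The shares by width are a description, since wide peaks have more bases that can meet another list.

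**Figure D3:**
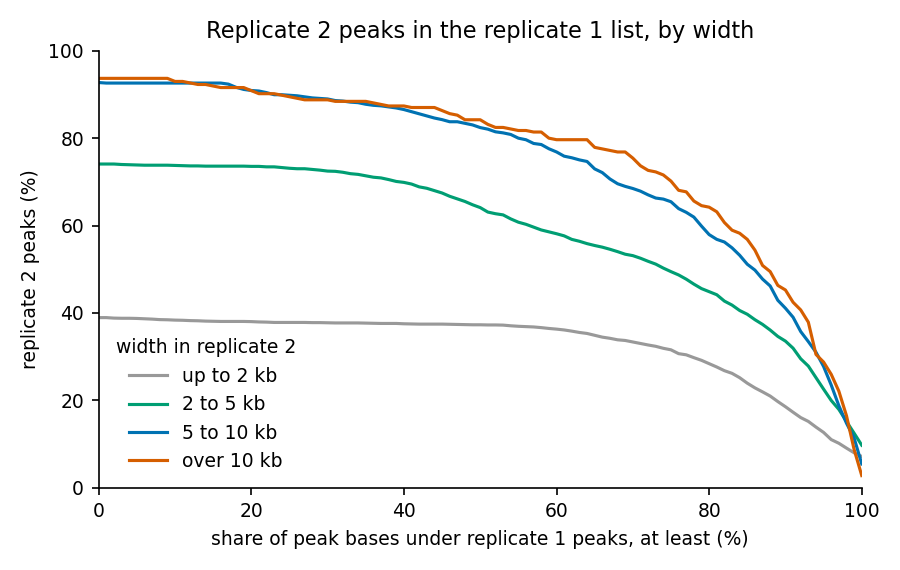
Share of replicate 2 peaks (y, %) with at least a given share of their bases under replicate 1 peaks (x, %; at 0, any base), for 4 width classes. The curve of the domains over 10 kb runs close to that of the 5 to 10 kb class (84.2 and 82.4% at 50%), and those of the narrower classes start lower.

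By chromosome, cover in replicate 1 was highest on I, with 84.99% of domain bases, then 80.5% on III, 75.1% on II, 73.8% on IV and 69.1% on V and on X. Over all replicate 2 peaks, most of them much narrower, the same share ran from 67.1% on I to 53.9% on X. It was below that of the domains on each chromosome. Peaks of 5 to 10 kb, nearly as well covered as the domains in the whole list, were not set beside them by chromosome. The 18 domains without replicate 1 cover were spread over all chromosomes: 5 on II, 4 on V, 4 on X, 2 on I, 2 on III and 1 on IV.

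Replicate 1 often listed a broad domain as several peaks. In 130 domains it had a single peak, in 89 it had 2, in 32 it had 3, in 12 it had 4 and in 4 it had 5. Thus 137 of 285 (48.1%) met 2 or more replicate 1 peaks, against 9.99% of all replicate 2 peaks and 32% of those of 5 to 10 kb. The share was 7.11% for peaks of 2 to 5 kb and 0.95% for peaks up to 2 kb. A wider peak has room to meet more peaks of another list, so this order follows in part from width. The 205 breaks between such peaks were short, with a median of 314 bp (interquartile range 93 to 788 bp), and 131 were under 500 bp. The longest was 7846 bp. Series-wide peaks covered 50.1% of the 138747 bases in these breaks.

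Breaks made up a small part of what replicate 1 left out. Of 948503 uncovered domain bases, 14.6% lay in breaks between replicate 1 peaks, 24.98% in the 18 domains with no replicate 1 peak, and 60.4% in the outer parts of the other domains. In the domains that replicate 1 met, series-wide peaks covered 88.1% of the bases that were also under replicate 1 peaks and 39.9% of those that were not. The series holds no precipitated samples but these, so the series-wide list cannot be taken as independent of either replicate.

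Where replicate 1 had a single peak, its ends lay close to those of some domains and far from those of others. Over 260 ends of 130 domains, the median offset between the lists was 387 bp (interquartile range 143.5 to 1489.75 bp), and 94 ends (36.2%) were within 200 bp. The replicate 1 peak ended inside the domain at 196 ends (75.4%) and outside it at 63. These domains were chosen for being wide in replicate 2, which by itself favours ends that lie farther out there.

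Cover by the other lists rose steeply at the ends of the domains and then more slowly towards the inside. In the 500 bp just outside an end, 13.6% of bases were under replicate 1 peaks and 4.76% under series-wide peaks. In the first 500 bp inside, the values were 46.3 and 24.7%, and in the next 500 bp 65.1 and 70.4%. At 4.5 to 5 kb inside they reached 82.6 and 85.8%. Around peaks of 5 to 10 kb, replicate 1 cover was 51.4% in the first and 71.2% in the second 500 bp inside. Outside, replicate 2's own peaks covered 8.43% of the nearest 500 bp and 28.3% at 2.5 to 3 kb.

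**Figure D4:**
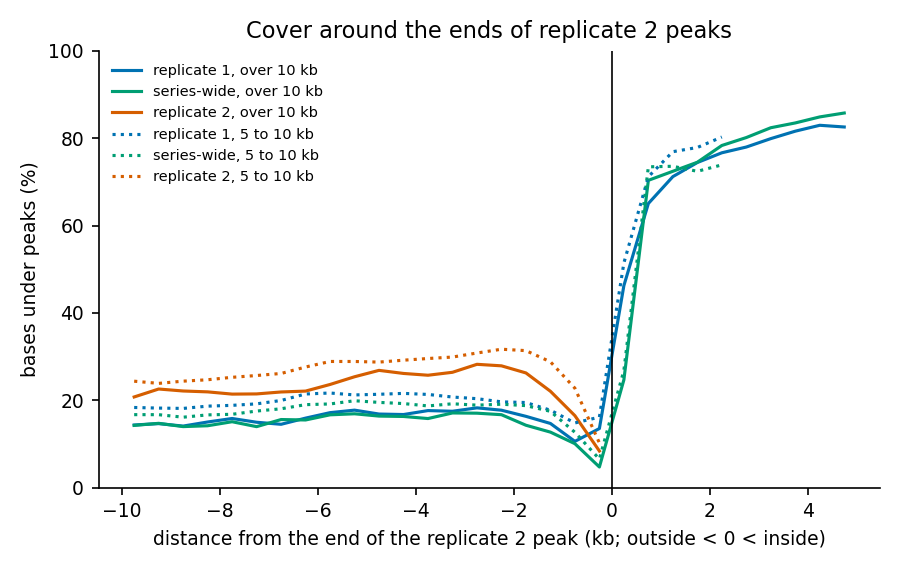
Share of bases under peaks (y, %) in 500 bp steps by distance from the end of a replicate 2 peak (x, kb, negative outside, both ends pooled), for domains over 10 kb (solid) and peaks of 5 to 10 kb (dotted), in the replicate 1 (blue), series-wide (green) and, outside only, replicate 2 (orange) lists. Inside the domains, replicate 1 cover goes from 46.3% in the first step to 82.6% in the last.

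The 18 domains absent from replicate 1 differed widely in the series-wide list. They measured 10239 to 20005 bp (median 12488.5 bp), and series-wide peaks covered from 12.9 to 94.4% of their bases (median 45.7%). In 5 of them the series-wide cover was above 80%. The widest was on V from 11898285 to 11918289 (20005 bp), where a series-wide peak of 14927 bp and 2 narrower ones filled 94.4% and the nearest replicate 1 peak was 37090 bp away. The next, on II from 6830618 to 6849386 (18769 bp), was filled to 86.0% by 6 series-wide peaks, with a replicate 1 peak 3214 bp away.

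The domain on X from 9094349 to 9112490 (18142 bp) was sparsely covered. It held 19 series-wide peaks, none wider than 965 bp, over 37.5% of its bases, and lay in a stretch of 300374 bp without a replicate 1 peak. On II from 539957 to 553568 (13612 bp) the series-wide cover was 87.7%, with a replicate 1 peak 350 bp away. On V from 20665949 to 20679443 (13495 bp), near the right end, it was 42.4%. Over the 18 domains, the stretch without replicate 1 peaks around the domain measured 19011 to 300374 bp, with a median of 69144.5 bp.

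At the other extreme, 8 domains lay wholly under replicate 1 peaks. The widest 5 ran on I from 2290453 to 2307254 (16802 bp) and from 14079174 to 14092034 (12861 bp), on II from 8016737 to 8029621 (12885 bp), and on V from 8888007 to 8900019 (12013 bp) and from 10957560 to 10968850 (11291 bp). Each lay within a single replicate 1 peak. Series-wide cover of these 5 ran from 65.7 to 94.9%, and the number of series-wide peaks from 1 to 10.

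Most wide peaks of replicate 1 were also listed in replicate 2, as were most of its peaks of any width. Of its 161 peaks over 10 kb, 115 (71.4%) met a broad domain of replicate 2, against 10.9% of all replicate 1 peaks. Of the 285 domains, 115 (40.4%) met one of these peaks, against 3.31% of all replicate 2 peaks. Wide peaks have more bases that can meet another list, so both contrasts follow in part from width. Neither share is given here for peaks of 5 to 10 kb. The 170 domains that met none had a median width of 11975.5 bp, against 14277 bp for the 115, and 125 of them were still covered to at least 50%. Over the 161 replicate 1 peaks the median cover in replicate 2 was 99.0%. At least 50% was covered in 141 (87.6%), close to the 86.9% of all replicate 1 peaks. No base was covered in 18 (11.2%, exact 95% interval 6.76 to 17.1%), close to the 11.3% of all replicate 1 peaks and above the 4.12% of the 583 replicate 1 peaks of 5 to 10 kb. The other 2 lay between. Those 18 measured 10368 to 25108 bp, and series-wide peaks covered a median of 86.2% of their bases, with more than 80% in 12.

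The series-wide list, for which MACS v2 is named, split most broad domains into several shorter peaks. All peaks of both replicate lists were wider than 500 bp, against 6754 of the 18427 series-wide peaks. Whether the splitting comes from the peak calling was not tested. Every domain met at least 1 series-wide peak, whereas 5.37% of all replicate 2 peaks met none. Of the 825 peaks of 5 to 10 kb, 1 met none (0.12%), which is close to the domains. A domain held a median of 7 (interquartile range 4 to 10, range 1 to 24), or 7.54 ± 4.43 on average (SD, n = 285 domains). The median fell to 3 when series-wide peaks less than 200 bp apart were joined. A single series-wide peak was held by 10 domains, while 81 held 10 or more and 20 held 15 or more. Wider domains held somewhat more (Spearman's rho 0.23, n = 285 domains). The 2150 peaks in the domains were 11.7% of the nuclear series-wide peaks and had 23.4% of the list's bases inside the domains.

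Per kilobase the domains held fewer series-wide peaks than narrower replicate 2 peaks did. The series-wide peaks in the domains were wider than the remainder of their list. There were 0.54 per kb in the domains, 0.70 in peaks of 5 to 10 kb, 0.80 in peaks of 2 to 5 kb and 0.88 in peaks up to 2 kb. The order was the same when peaks were placed by their midpoints (0.53, 0.69, 0.79 and 0.86) or limited to those at least 300 bp wide (0.38, 0.47, 0.52 and 0.56). With series-wide peaks less than 200 bp apart joined, the values were 0.27, 0.40, 0.55 and 0.73. Replicate 2 peaks up to 2 kb had a median width of 1344 bp and a median of 1 series-wide peak. In so short a peak, 1 series-wide peak already gives a high value per kb. The order of the classes thus follows in part from their widths, under each way of counting. The median width of series-wide peaks was 528 bp in the domains (interquartile range 264 to 1314.25 bp) and 349 bp elsewhere (214 to 665 bp). Here elsewhere means every series-wide peak that met no domain, whether or not it met a narrower replicate 2 peak. Series-wide peaks over 5 kb made up 1.57% of that list, and 168 of these 290 lay in the domains, as did 43 of the 48 over 10 kb. A wide series-wide peak can hardly lie in a narrow region, so these counts follow in part from the width of the domains.

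Series-wide peaks covered 77.7% of domain bases, against 67.7% for peaks of 5 to 10 kb and 53.5% for those of 2 to 5 kb. The median domain was covered to 81.3% (interquartile range 70.7 to 88.2%, range 12.9 to 97.9%). Midpoints of neighbouring series-wide peaks within a domain lay a median of 1013 bp apart (interquartile range 645.5 to 1844 bp, n = 1865 intervals in 275 domains). In peaks of 5 to 10 kb the median was 925.5 bp, and along the whole genome 1327.5 bp. The free gaps between them were short, with a median of 166 bp (79 to 355 bp) in the domains and 182 bp in the 5 to 10 kb class. The longest stretch of a domain without a series-wide peak had a median of 786 bp. It was longest on II from 4973452 to 4994417 (20966 bp), where the first 8225 bp were free and the remainder held 9 series-wide peaks. Replicate 1 covered 47.6% of that domain, also in its right part only, from 10563 bp onward.

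In the series-wide list, broad domains ranged from a single block to a string of small peaks. In 100 domains (35.1%, exact 95% interval 29.6 to 40.9%) a single series-wide peak covered at least 50% of the bases, against 22.0% of all replicate 2 peaks and 28.8% of those of 5 to 10 kb. Over all domains the largest series-wide peak covered a median of 39.5%. The 100 block-like domains held a median of 4 series-wide peaks and the other 185 a median of 9, while their median widths were alike, 13026.5 and 12736 bp. The block-like domains were covered to a median of 93.9% in replicate 1 (interquartile range 82.1 to 98.2%) and the others to 83.9% (51.4 to 93.1%). Fewer than 50% of the bases were in replicate 1 for 3 of the 100 and for 42 of the 185. The series-wide list, which defined these groups, cannot be taken as independent of replicate 1, so the contrast is a description.

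**Figure D5:**
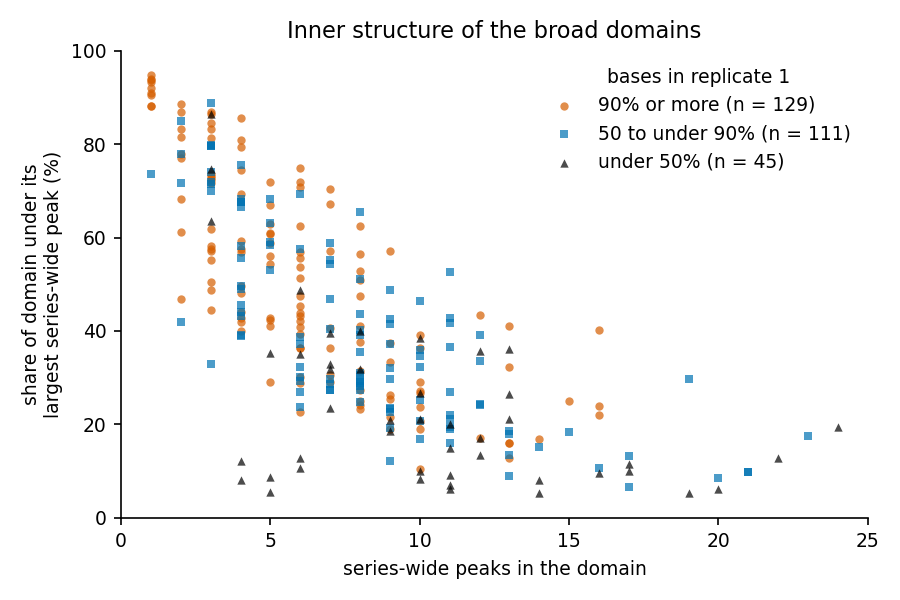
Each point is 1 of the 285 broad domains: the number of series-wide peaks in it (x) and the share of its bases under the largest of them (y, %), with marks for its share of bases in replicate 1. Domains with many small series-wide peaks lie at the lower right, and most of the 45 domains with under 50% of their bases in replicate 1 (black) lie low.

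Among the domains with a single series-wide peak were those on I from 7078192 to 7088487 (10296 bp), on II from 8895555 to 8909795 (14241 bp) and on II from 13815235 to 13830087 (14853 bp). Their series-wide peaks of 9607, 12890 and 13509 bp filled 93.3, 90.5 and 91.0% of them, and replicate 1 covered 100, 93.4 and 98.4%. The domains with most series-wide peaks, beside that on II with 24, were on IV from 12358028 to 12376831 (18804 bp, 23 peaks) and on III from 5664435 to 5681108 (16674 bp, 22 peaks). Their series-wide peaks had median widths of 324 and 369 bp, and replicate 1 covered 85.4 and 44.2% of the bases. These 3 single-peak domains come first by position among 10. Over the 10, cover in replicate 1 ran from 79.9 to 100%, with a median of 98.1% and at least 90% in 9.

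Domains well covered in replicate 1 were also well covered by series-wide peaks. In the 129 domains with at least 90% of bases in replicate 1, the median series-wide cover was 88.1%, the median number of series-wide peaks 6 and the median of their typical widths 963.5 bp. In the 111 domains with 50 to 90%, these were 76.5%, 8 and 564 bp. In the 45 domains under 50%, they were 57.6%, 10 and 411 bp. Median widths of the domains were 13105, 12509 and 12653 bp in the 3 groups. Across domains, the cover in replicate 1 and by series-wide peaks had a Spearman's rho of 0.63 (n = 285), and the lists share libraries.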

How the data were processed

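Chromatin of crosslinked early embryos was sonicated and precipitated with 8WG16, per the labels' protocols. Reads were aligned with BWA to ce10, per the submitters' processing notes. The authors deposited a peak list for each precipitated sample, made with a program named MACS, and a series-wide list for which the caller is named MACS v2, per the file headers and lines. Not given in the sources used here are versions, controls, read filters, the handling of multiply mapping reads and how the list of the whole series was made. The deposited values used were the first and last base of each peak (1-based). The peak scores were not used. Domains, overlaps (at least 1 bp), covered bases and chromosome lengths (last listed peak end, 100.3 Mb in all) were computed with scipy 1.17.1, pandas 2.3.3 and numpy 2.4.6 in Python 3.11.15. Matplotlib 3.10.9 drew the figures. The 13 mitochondrial series-wide peaks were left out. Width classes run from above their lower to their upper limit. Interval functions were tested on simulated data. Members, lists and measures were chosen with earlier results of these data known. Named regions were the widest, the nearest to the threshold, the most and least covered, those with most and fewest series-wide peaks, and the largest clusters. The pair of closest domains and the bins were named after their values were seen. Exact binomial intervals treat neighbouring regions as independent and cover counting error only. Whether the replicates were separate embryo preparations is not stated in the labels.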

Additional observations from a re-analysis of the deposited data

How the results depend on the processing

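Of 28 alternative settings for 10 results, 15 stayed close to the reported value (within 1.5 times for counts and ratios, within the binomial interval for shares). Bases are not independent draws, so for shares of bases this limit is a convention and measures no error. The number of domains was set by the threshold, with 493 above 8 kb, 173 above 12 kb and 82 above 15 kb, and by the library, with 161 when replicate 1 chose them. Cover in the other replicate was 87.8% as a median and 84.5% when replicate 1 chose the domains and replicate 2 was read. At least 90% cover was reached by 129 domains. Joining series-wide peaks less than 200 bp apart lowered the median number per domain to 3, and spacing taken as the free gap was 166 bp. Linking domains within 20 kb gave 13 clusters and within 100 kb gave 51. The ratio of the richest to the poorest chromosome, 2.26, was 3.56 when replicate 1 chose the domains. The central 40% of the chromosomes held 50.9% of the domains, against 61.4% in the wider central part of the main setting. A narrower window holds a smaller share by itself, so this difference does not show that the central result depends on the setting. No share of all replicate 2 peaks was taken for the narrower window. A stricter series-wide list by score was not run, and peaks of at least 300 bp were taken in its place (median 5 per domain). No paired analysis was possible because the input samples have no peak list of their own and the precipitated samples form a single group. Whether domains hold repeated sequence, to which reads cannot be assigned uniquely, was not tested.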
